A study of Mus musculus with 8 samples.

Results

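The interferon-inducible p200 family, also called the HIN-200 or PYHIN family, was followed in tumor-associated macrophages (TAMs). Members were the rows of the deposited tables whose gene symbol was Ifi203, Ifi204, Ifi205, Ifi207, Ifi209, Ifi211, Ifi213, Mnda, Mndal or Aim2. Of these 10 symbols, 9 were listed among 21051 genes, and all 9 had reads in every library and passed the filter on low counts. Mnda was not listed under that symbol, which the RefSeq gene table gives as an older name of Ifi211.

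TAMs were isolated from tumors of B16, a transplanted mouse melanoma line, at day 14 after subcutaneous injection, by sorting cells positive for CD45 and F4/80. The 4 libraries of TAM-WT (replicates WT1 to WT4) came from wild-type littermates and the 4 of TAM-KO (KO1 to KO4) from Colec11-/- mice, all C57BL/6 males aged 8 to 10 weeks. Colec11 encodes collectin-11, a soluble pattern-recognition lectin, and was disrupted in the host, not in the injected B16 cells. No agent was given. The mice of both groups carried the same tumor line, and each group was 4 mice, although the labels do not tie a library to a mouse.

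Between 16225362 and 17280267 reads were assigned to genes in the 7 libraries with complete tables. The table of KO1 did not list 5311 genes, among them Ifi203, Ifi204 and Mndal. Their KO1 values were taken from the table of the whole series, which lists genes selected for differing between the groups, and enter the levels, whereas their test used 3 TAM-KO libraries. Colec11 itself had at most 4 reads in any library, too few to check the genotype labels. All 10 macrophage markers examined were above 0 in every library with a value for them, and their summed level was 6026.53 to 7419.81 FPKM in TAM-WT and 6309.4 to 6989.34 FPKM in KO2 to KO4, where FPKM is the number of fragments scaled by transcript length and by the mapped reads of the library.

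p200 proteins are built from a DNA-binding HIN domain, a pyrin domain, or both, and are found in the nucleus and the cytosol of myeloid cells. AIM2 binds double-stranded DNA in the cytosol and assembles an inflammasome with the adaptor ASC and caspase-1, and p204, the product of Ifi204, is often treated as the mouse counterpart of human IFI16, a sensor of DNA that signals through STING. Many of the genes are induced by type I and type II interferon, whose signals reach promoters through JAK-STAT signaling and the interferon regulatory factors.

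The family occupies 1 block of chromosome 1. In the RefSeq annotation of GRCm38.p6, 13 p200 genes lie between positions 173349547 and 174031755, a span of 682 kb, with Aim2 at one end and Ifi205 at the other. The 4 genes of the block that are not members by symbol are Ifi202b, Ifi206, Ifi208 and Ifi214. No other listed gene lies wholly inside it. Of the 5 flanking genes on each side, none had a value in the tables with enough reads to be tested.

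Upstream of most of these genes the sequence is alike. The letters GAAANNGAAA, a core shared by interferon-stimulated response elements and binding sites of interferon regulatory factors, were searched on both strands of the RefSeq promoter windows, which run from 250 bases before to 50 bases after each start of transcription. The letters were chosen after the windows had been read. Of the 13 genes, 12 had a window (Ifi204 had none), and 9 of the 12 held a match, against 3.99% of 27025 genes with windows of the same length. The stretches around the shared core are printed 5′ to 3′ in the direction of transcription, because they show how alike the start regions of 10 genes are, with GAAANNGAAA, or in Ifi209 the aligned bases that miss it by their first base, in capitals.
Ifi205 (chr1:174031865-174031904, minus strand): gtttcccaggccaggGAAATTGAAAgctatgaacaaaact
Ifi211 (chr1:173913059-173913098, minus strand): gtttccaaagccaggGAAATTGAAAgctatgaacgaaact
Ifi207 (chr1:173741826-173741865, minus strand): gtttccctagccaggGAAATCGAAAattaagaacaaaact
Ifi203 (chr1:173942503-173942542, minus strand): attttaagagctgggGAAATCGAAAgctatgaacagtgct
Mndal (chr1:173880199-173880238, minus strand): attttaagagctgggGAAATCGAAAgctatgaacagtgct
Ifi213 (chr1:173599321-173599360, minus strand): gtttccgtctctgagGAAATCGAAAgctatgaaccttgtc
Ifi208 (chr1:173673592-173673631, plus strand): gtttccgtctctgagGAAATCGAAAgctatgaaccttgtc
Ifi206 (chr1:173491334-173491373, minus strand): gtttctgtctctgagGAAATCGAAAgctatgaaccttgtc
Ifi214 (chr1:173536012-173536051, minus strand): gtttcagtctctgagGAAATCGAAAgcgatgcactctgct
Ifi209 (chr1:173630765-173630804, plus strand): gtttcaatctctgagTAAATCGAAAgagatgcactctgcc
The stretches of Ifi203 and Mndal were identical, as were those of Ifi213 and Ifi208. The capitals began between 35 bases (Ifi203) and 79 bases (Ifi209 and Ifi214) before the start of transcription in 9 of the genes and 134 bases before it in Ifi205. Either of the 2 cores shown, GAAATCGAAA or GAAATTGAAA, was present on either strand in 53 of the 27025 genes (0.196%), and these 9 genes were among the 53. The 2 cores were taken from the windows of this block, whose genes are alike in sequence. Their presence here was therefore fixed in advance, and the share is no test of enrichment. The windows of Aim2 and Ifi202b held no GAAANNGAAA. These are matches of letters and say nothing on whether a factor bound there.

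The question put to the RNA data was whether the absence of collectin-11 from the host altered the p200 program of TAMs. None of the 9 members passed an adjusted p of 0.05 in edgeR's quasi-likelihood test, against 9.81% of the 12412 genes tested, and none passed with a 2-fold change added, against 2.53%, so no change in any member was established. Yet 7 members (Ifi203, Ifi204, Ifi205, Ifi209, Ifi211, Ifi213 and Mndal) had a higher mean in TAM-KO, with log2 fold changes of 0.58 to 1.18 and adjusted p between 0.0605 and 0.154. At an unadjusted p under 0.05 in edgeR, 7 of 9 members were higher (14.9% of all genes) and 1, Aim2, was lower (15.7% of all genes), 8 in either direction against 30.7% of all genes. Of the 9, 5 had all 4 TAM-KO values above all 4 TAM-WT values, against 13.8% of genes with 8 values and 13.5% when genes with 3 TAM-KO values are included. Among the 6 members whose 8 values all came from the sample tables, these were 3 (Ifi205, Ifi209 and Ifi213), against 12.3% of such genes. Aim2 and Ifi207 did not share this pattern and had log2 fold changes of -0.23 and -0.19. In bulk RNA, more cells of a type and more RNA per cell cannot be told apart.

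Ifi204, whose product binds DNA and also the retinoblastoma protein, was the most abundant of the 7. Its level was 84.3, 45.28, 70.23 and 101.28 FPKM in WT1 to WT4 and 98.52, 119.41, 133.9 and 111.01 FPKM in KO1 to KO4. WT2 was the lowest library and KO3 the highest, and the groups overlapped because WT4 lay above KO1. The means were 75.3 ± 23.7 FPKM in TAM-WT and 115.7 ± 14.9 FPKM in TAM-KO (SD, n = 4 each). The log2 fold change in edgeR was 0.58 (SE 0.24, adjusted p = 0.154, with 3 TAM-KO libraries in the test). With the KO1 value included it was 0.49 (adjusted p = 0.174). Of the 50-base stretches of its transcripts, 29.7% also occurred in transcripts of another gene, 23.2% in those of Ifi211.

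Ifi211, the gene for which the name Mnda was once used, encodes a HIN-domain protein. It was measured at 62.65, 30.62, 47.06 and 76.82 FPKM in WT1 to WT4 and at 76.6, 89.48, 105.56 and 86.05 FPKM in KO1 to KO4. The groups overlapped by a small margin, WT4 lying just above KO1, and WT2 was again the lowest. The log2 fold change was 0.61 (SE 0.24, adjusted p = 0.125). The reads of Ifi211 were the least certain of the family, because 72.8% of the 50-base stretches of its transcripts also occurred in transcripts of another gene, mostly Ifi205.

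Mndal, named for its likeness to human MNDA, the myeloid cell nuclear differentiation antigen, came nearest to the threshold. Its values were 32.75, 16.15, 17.77 and 33.2 FPKM in WT1 to WT4 and 37.31, 52.11, 55.29 and 43.07 FPKM in KO1 to KO4. The 2 groups did not overlap, and TAM-WT split into a lower pair, WT2 and WT3, and a higher pair. The log2 fold change in edgeR was 0.92 (SE 0.26, adjusted p = 0.0605, with 3 TAM-KO libraries in the test). With the KO1 value included it was 0.80 (adjusted p = 0.0717). The means over all libraries were 25.0 ± 9.27 and 46.9 ± 8.25 FPKM (SD, n = 4 each). Of the 50-base stretches of its transcripts, 26.4% were shared with another gene, 15% with Ifi211.

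Ifi203, whose promoter stretch matches that of Mndal base for base, was at 20.79, 10.34, 14.3 and 21.91 FPKM in WT1 to WT4 and at 24.39, 31.7, 33.59 and 26.12 FPKM in KO1 to KO4. All TAM-KO libraries were above all TAM-WT libraries, with KO1 closest to WT4. A log2 fold change of 0.71 (SE 0.23, adjusted p = 0.0837, with 3 TAM-KO libraries in the test) was estimated in edgeR. With the KO1 value included it was 0.62 (adjusted p = 0.097). Only 3.02% of the 50-base stretches of its transcripts were shared with another gene, the smallest share among the 7 members with a higher TAM-KO mean.

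Ifi209 was at 18.33, 6.26, 11.74 and 25.37 FPKM in WT1 to WT4 and at 27.72, 36.58, 37.63 and 31.07 FPKM in KO1 to KO4. The groups were apart, and within TAM-WT the highest library exceeded the lowest by a factor of more than 4. A log2 fold change of 0.99 (SE 0.34, adjusted p = 0.0866) was estimated. Of its 50-base stretches 29.3% were shared with Ifi214, a gene with hardly any reads here.

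Ifi205, whose product p205 is a nuclear protein studied in macrophages and in cell differentiation, was at 14.24, 4.8, 5.92 and 19.22 FPKM in WT1 to WT4. In KO1 to KO4 it was at 19.46, 26.48, 33.38 and 20.79 FPKM. The groups met without overlapping, since WT4 and KO1 were nearly equal. The log2 fold change was 1.07 (SE 0.39, adjusted p = 0.0978). Of the 50-base stretches of Ifi205, 49.5% occurred in Ifi211 too, so the division of reads between these 2 genes rests on the estimation step of RSEM.

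Ifi213, the least abundant of the 7, had the largest fold change among the members. It was at 10.32, 2.36, 4.79 and 12.17 FPKM in WT1 to WT4 and at 12.69, 21.67, 21.98 and 15.08 FPKM in KO1 to KO4. WT4 and KO1 again stood next to each other at the border of the groups. Its log2 fold change was 1.18 (SE 0.42, adjusted p = 0.0908), and the means were 7.41 ± 4.60 and 17.9 ± 4.69 FPKM (SD, n = 4 each).

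**Figure D1:**
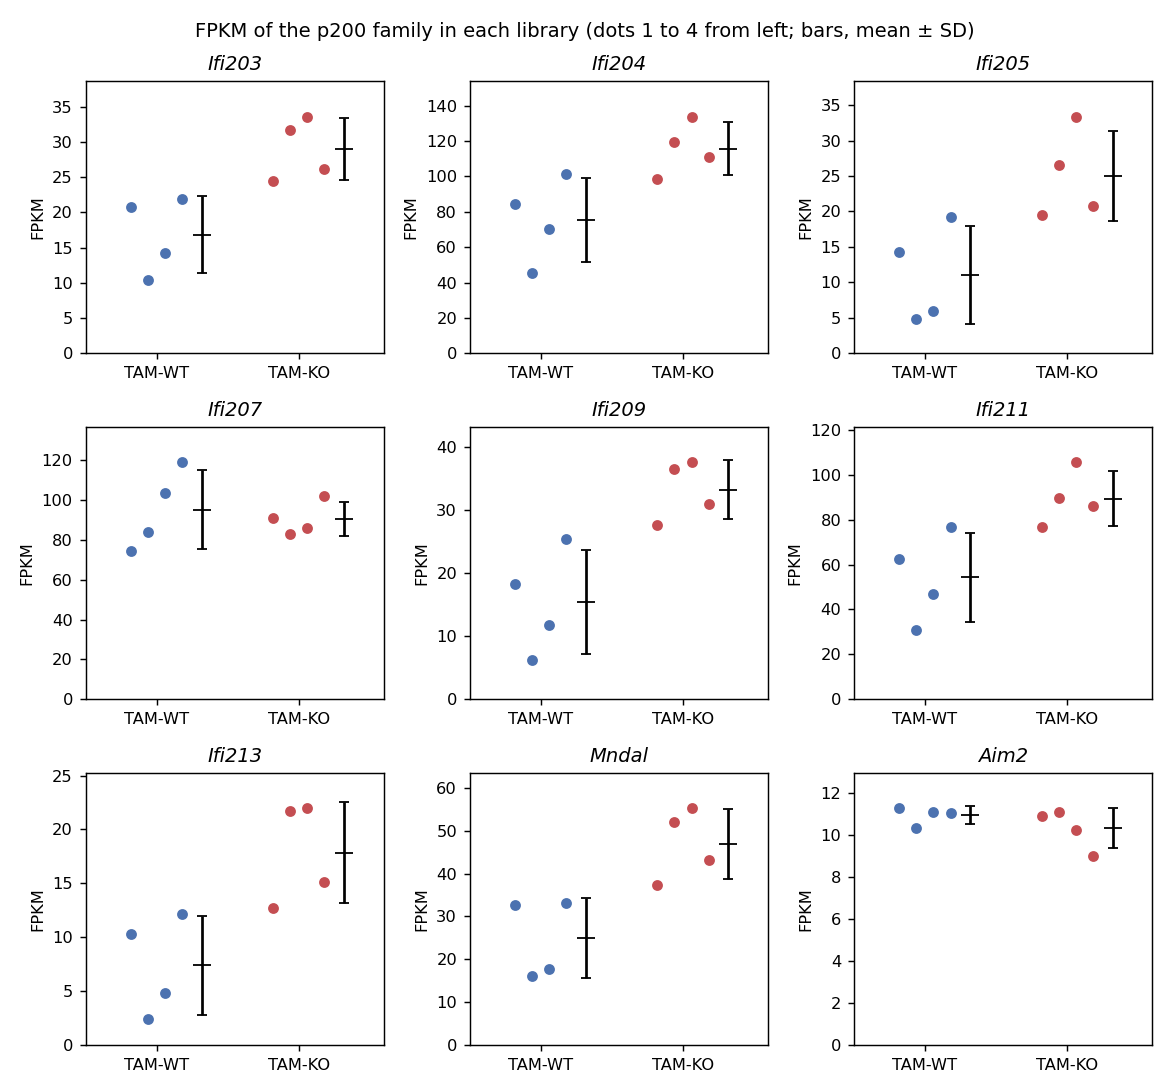
FPKM of each of the 9 listed p200 members (vertical axis, from 0) in the 4 TAM-WT and 4 TAM-KO libraries, with the mean and SD of each group beside the points. In 7 members TAM-WT was spread widely, with replicate 2 lowest, and the TAM-KO mean was higher. Of these, Ifi204 and Ifi211 overlapped between the groups. Ifi207 and Aim2 also overlapped, and their mean was not higher in TAM-KO.

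Ifi207, which encodes a nuclear protein with a pyrin and a HIN domain, was as abundant as Ifi204 but followed another course. It was at 74.38, 83.9, 103.84 and 119 FPKM in WT1 to WT4 and at 91.16, 82.78, 86.24 and 101.93 FPKM in KO1 to KO4. The TAM-KO values lay inside the TAM-WT range, and WT1, not WT2, was the lowest library. Its log2 fold change was -0.19 (SE 0.17, adjusted p = 0.470), which with 1.96 SE on either side leaves room from -0.52 to 0.14. The core in its promoter, GAAATCGAAA, was also found in those of Ifi203, Mndal and Ifi213 among the members. Only 4.52% of its 50-base stretches were shared with another gene.

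Aim2, the inflammasome sensor, was the steadiest member. It was at 11.26, 10.31, 11.1 and 11.04 FPKM in WT1 to WT4 and at 10.88, 11.1, 10.24 and 9 FPKM in KO1 to KO4. The groups overlapped, and KO4 was the lowest library. Its coefficient of variation came to 3.86% for TAM-WT and 9.15% for TAM-KO, against 31.5% to 62.4% in TAM-WT for the 7 members with a higher TAM-KO mean. Its log2 fold change was -0.23 in edgeR (SE 0.08, adjusted p = 0.103). On the scale of the printed FPKM it was smaller, -0.08 in limma on log2(FPKM + 1) (adjusted p = 0.508). With 0.502% of its 50-base stretches shared, its reads were nearly all its own.

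**Figure D2:**
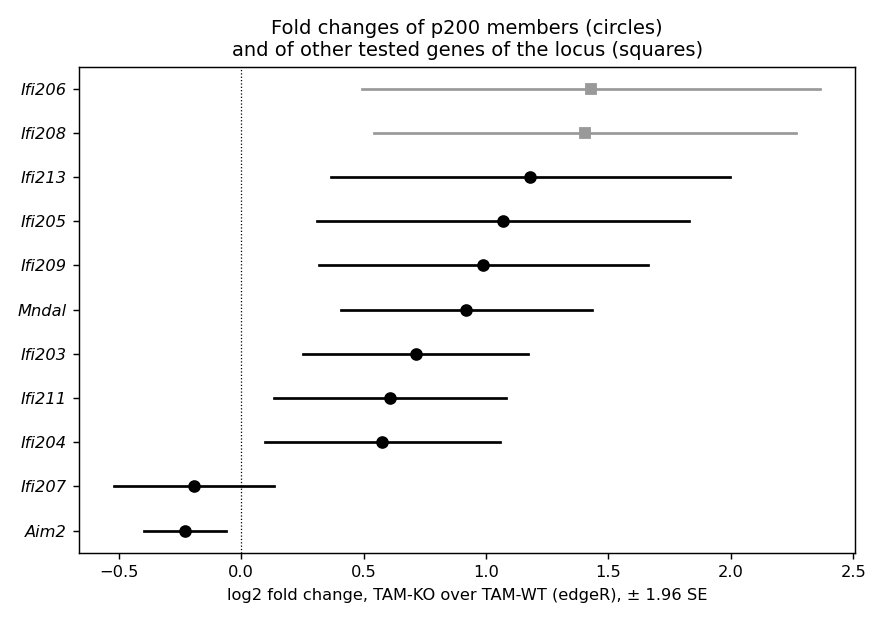
Log2 fold change of TAM-KO over TAM-WT from edgeR's quasi-likelihood test for the 9 members (circles) and the 2 other tested genes of the block (squares), with lines of 1.96 SE on either side. Values ran from -0.23 for Aim2 to 1.18 for Ifi213 among the members and reached 1.43 for Ifi206.

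Of the genes in the block that are not members, Ifi206 and Ifi208 were tested. Ifi206 was at 8.44, 1.86, 3.79 and 9.96 FPKM in WT1 to WT4 and at 10.93, 16.64, 21.18 and 14.78 FPKM in KO1 to KO4. Ifi208 was at 2.29, 0.57, 0.82 and 2.66 FPKM in WT1 to WT4 and at 2.72, 4.89, 6.3 and 4.07 FPKM in KO1 to KO4. Both had every TAM-KO library above every TAM-WT library, with WT2 lowest and KO3 highest. The log2 fold change was 1.43 (SE 0.48, adjusted p = 0.0879) for Ifi206 and 1.40 (SE 0.44, adjusted p = 0.0684) for Ifi208, so neither passed. Ifi214 stayed at 0.68 FPKM or below and Ifi202b, whose product lacks a pyrin domain and opposes AIM2, at 0.27 FPKM or below, and both were too low to be tested.

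Leaving out single libraries changed which members passed. Without WT2, the library with the lowest level of 7 members, 4 of the 9 passed, 3 as higher (11.6% of all genes in that fit) and 1 as lower (10.5%). These were Ifi203 (log2 fold change 0.53, adjusted p = 0.0283), Ifi209 (0.72, adjusted p = 0.0389) and Mndal (0.74, adjusted p = 0.0335), which were higher in TAM-KO, and Aim2 (-0.30, adjusted p = 0.0180), which was lower. Without WT4, the TAM-WT library with the highest level of 8 members, Ifi209 alone passed (adjusted p = 0.0474), against 1.4% of all genes as higher. Without any other library no member passed. Of all genes, 77 passed without KO2, 77 without KO3 and 151 without WT3. The counts were 682 without KO1, 1136 without KO4 and 1160 without WT1, against 1218 of 12412 genes in the main test. Other tests left no library out, but those of Ifi203 and Mndal again lacked KO1 and held 3 TAM-KO libraries. DESeq2 called Ifi203 (adjusted p = 0.0283) and Mndal (adjusted p = 0.00898), against 8.71% of all genes as higher. On log2(FPKM + 1), limma called Ifi209 (adjusted p = 0.0458) and Mndal (adjusted p = 0.0426), against 7.38%. With 0.1 in place of 1 as the pseudocount limma called the same 2 members, against 7.07%. No member's fold change had another sign in any of the 16 alternative fits. For Ifi203, Ifi204 and Mndal the fit without KO1 gave the main fold change again, because KO1 was not in their test.

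The members were not independent of each other. The 7 with a higher TAM-KO mean had nearly the same order of libraries: WT2 was lowest and WT3 next in all 7, KO3 highest in all 7, and KO1 the lowest TAM-KO library in all 7. Over the 8 libraries, Pearson's r between pairs of these 7 on the log2(FPKM + 1) scale was 0.946 (Ifi204 with Mndal) or higher in all 21 pairs, and 0.888 (the same pair) or higher once the group means had been taken away. The libraries are shared by all the genes and reads are divided between related transcripts, so these values describe 8 libraries and not 7 separate measurements. Ifi207 had r of -0.13 to 0.12 with the 7, and -0.04 to 0.31 once the group means had been taken away. For Aim2 the sign turned, from -0.19 to -0.10 before to 0.27 to 0.38 after.

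**Figure D3:**
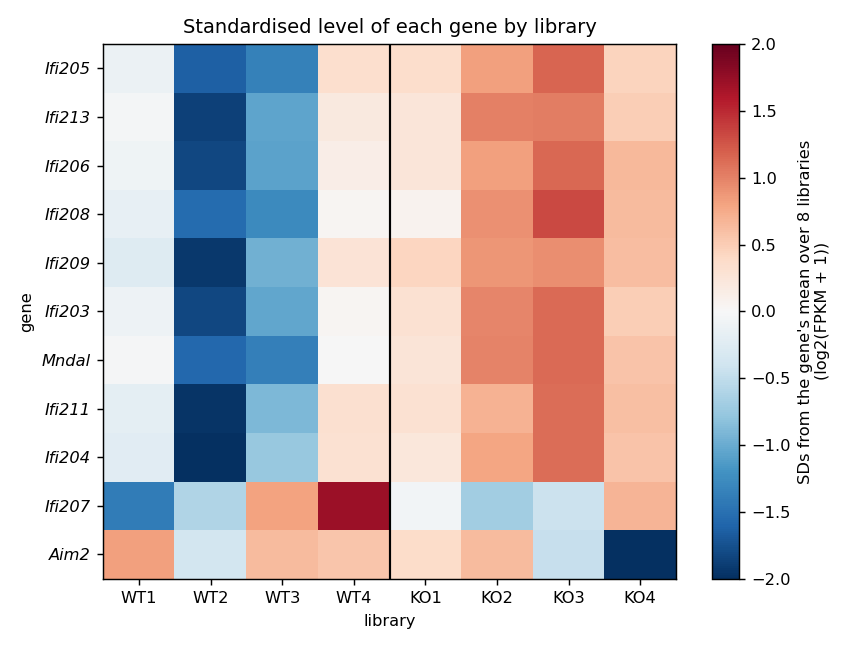
Level of each gene in each library (columns), as SDs from the mean of that gene over the 8 libraries on the log2(FPKM + 1) scale, for 9 members and the tested genes Ifi206 and Ifi208. In 9 rows the levels share one course, with WT2 and WT3 low and KO2 and KO3 high, while the rows of Ifi207 and Aim2 run differently.

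The balance within the family can be read from FPKM, which is scaled by length. In TAM-WT the order of the mean levels was Ifi207, Ifi204, Ifi211, Mndal, Ifi203, Ifi209, Ifi205, Aim2 and Ifi213, and every neighbor in it overlapped with the next. In TAM-KO the order was Ifi204, Ifi207, Ifi211, Mndal, Ifi209, Ifi203, Ifi205, Ifi213 and Aim2, and the neighbors overlapped except Ifi211 with Mndal and Ifi213 with Aim2. Compared within libraries, Ifi204 exceeded Ifi207 in 1 of 4 TAM-WT libraries and in 4 of 4 TAM-KO libraries, Ifi209 exceeded Ifi203 in 1 of 4 and in 4 of 4, and Ifi213 exceeded Aim2 in 1 of 4 and in 4 of 4. The ratio of Ifi204 to Ifi207 was 0.54 to 1.13 in TAM-WT and 1.08 to 1.55 in TAM-KO, WT1 lying above the lowest TAM-KO library. Ifi207 made up 31.8% ± 7.80 of the summed FPKM of the family in TAM-WT and 20.01% ± 3.37 in TAM-KO (SD, n = 4 each). The family sum was 329.02, 210.02, 286.75 and 420.01 FPKM in WT1 to WT4 and 398.73, 471.31, 517.81 and 444.12 FPKM in KO1 to KO4, so WT4 lay above KO1.

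Transcripts of other cells differed between libraries as well, and only in part in the order of the p200 levels. The sum of 8 T cell markers was 18.7 FPKM in WT1, 2.14 to 2.34 FPKM in WT2 to WT4 and 23.5 to 62.3 FPKM in TAM-KO. In edgeR 2 of 9 tested T cell markers, Thy1 and Cd2, passed as higher in TAM-KO (22.2%, against 4.58% of all genes). Of the 9 T cell genes, Cd5 was at 0 in WT2 and Cd3d in WT3, and no other value was 0. The sum of 7 NK cell markers was 0.43 to 16.99 FPKM in TAM-WT and 17.9 to 65.4 FPKM in TAM-KO. Of 5 tested, 2 passed as higher (40%), and in WT2 4 of 8 (Eomes, Klre1, Ncr1 and Prf1) were at 0. WT4 had the highest p200 level of TAM-WT with T cell markers at 2.34 FPKM, near those of WT2 with the lowest. KO2 and KO3 had the highest p200 levels and also the highest T cell marker sums, 62.3 and 51.1 FPKM. The sum of 7 melanoma cell markers was 1957.59 to 4382.11 FPKM in TAM-WT, highest in WT2, and 3817.08 to 5056.51 FPKM in TAM-KO. Of these 7, 1 (Sox10) passed as higher (14.3%) and none was at 0. At an unadjusted p under 0.05 in edgeR, 8 of 9 T cell, 4 of 5 NK cell and 6 of 7 melanoma cell markers were higher. The share of all genes was 14.9%. Neutrophil markers summed to 213.5 FPKM in KO1, the TAM-KO library with the lowest p200 level, and to 47.2 to 74.2 FPKM in the other libraries. Among them Ly6g was at 0 in WT2, WT3, WT4, KO1 and KO2, and Retnlg in WT1. The part of these cells in the p200 levels was not tested.

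**Figure D4:**
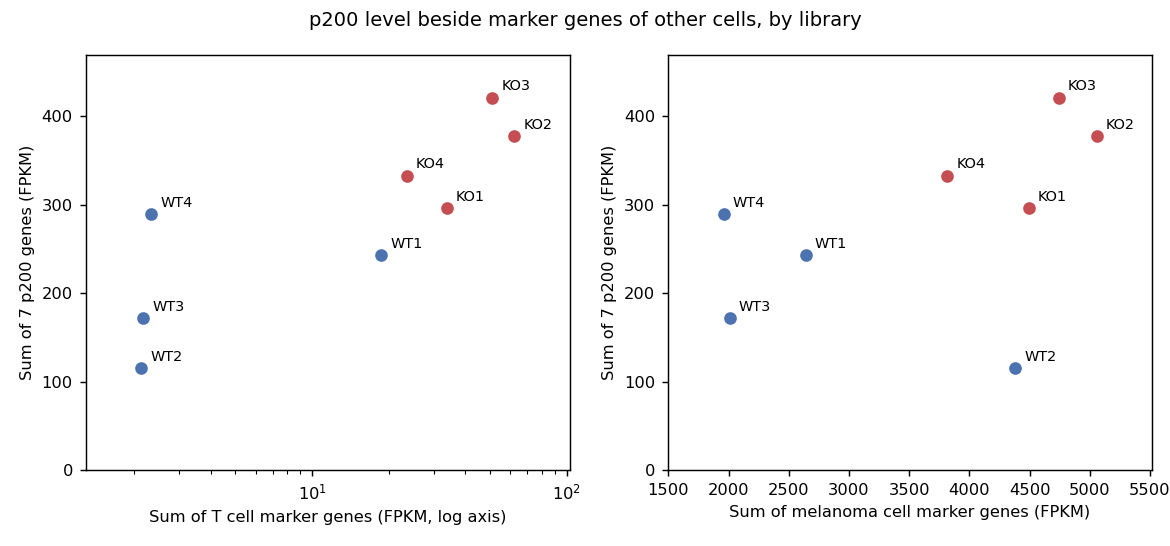
Summed FPKM of the 7 p200 members with a higher TAM-KO mean (vertical axis) against the summed FPKM of 8 T cell markers (left, log axis) and 7 melanoma cell markers (right), 1 point per library. Among TAM-WT, the p200 sum ran from 115.81 in WT2 to 289.97 in WT4 while T cell markers in those libraries were 2.14 and 2.34 FPKM. In the left panel every TAM-KO library lay above every TAM-WT library on both axes, with KO2 and KO3 highest on both.

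In the remaining marker lists the share of calls varied. Of 10 macrophage markers 1 fell, Mrc1, the mannose receptor (log2 fold change -1.13, adjusted p = 0.0219), and none rose. C1qa and C1qb, subunits of complement C1q, were the most abundant and had log2 fold changes of 0.13 and 0.07. Of 7 monocyte markers 3 rose (42.9%, against 4.58% of all genes), Ly6c2 and Plac8 among them, and 1 fell (14.3%, against 5.24%), Fn1. Of 8 dendritic cell markers Xcr1 rose from a very low level, of 5 tested neutrophil markers S100a8 rose, and none of 2 B cell, 4 fibroblast and 4 endothelial cell markers passed.

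Upstream of the family, interferons themselves were scarce. Only 4 of 10 genes of the list of interferons and interferon-linked cytokines could be tested, and Ifng, the type II interferon, was at 2.49, 0, 0.12 and 0 FPKM in WT1 to WT4 and at 3.59, 7.77, 6.11 and 2.15 FPKM in KO1 to KO4. WT1 was the single TAM-WT library with more than a trace. The log2 fold change was 2.94 (SE 1.04, adjusted p = 0.102). Ifnb1, the one type I interferon tested and named after its value was seen, had a log2 fold change of -1.38 (SE 0.54, adjusted p = 0.128). Il12b, a subunit of the interferon-inducing cytokine IL-12, was the 1 gene of the list that fell (-1.77, adjusted p = 0.0329).

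Of 19 genes of interferon receptors and JAK-STAT signaling, 5 rose (26.3%, against 4.58% of all genes) and none fell. Socs1, an inhibitor of JAK kinases, had the largest change (log2 fold change 1.45, SE 0.34, adjusted p = 0.0393). Ptpn6 and Ifnar2, the most abundant of the list, did not pass (0.40 and -0.21).

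Other interferon-induced genes are given for comparison, and no difference between lists was tested. Of 32 antiviral interferon-stimulated genes 9 rose (28.1%) and none fell, led by Ifi44 (log2 fold change 2.10) and Oas3 (1.21), an oligoadenylate synthetase, and the median log2 fold change was 0.68. At an unadjusted p under 0.05 in edgeR, 24 of the 32 were higher, against 14.9% of all genes. Ifi27l2a and Bst2, the most abundant, did not pass (-0.15 and 0.40). Of 24 genes induced by interferon gamma 9 rose (37.5%) and none fell, led by the GTPases Tgtp1 (3.42) and Tgtp2 (2.65). The median was 1.49, and 19 were higher at an unadjusted p under 0.05 in edgeR, against 14.9% of all genes. Cd74 and H2-D1, of antigen presentation, were the most abundant and did not pass (0.63 and 0.26). Without WT4, 12 antiviral and 1 of the interferon gamma-induced genes passed, beside 1 p200 member and 416 of all genes. Without KO2, KO3 or WT3 none of the 3 lists had a gene that passed, and of all genes 77, 77 and 151 did. The median of the 9 p200 members was 0.71 and that of all 12412 genes 0.00.

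**Figure D5:**
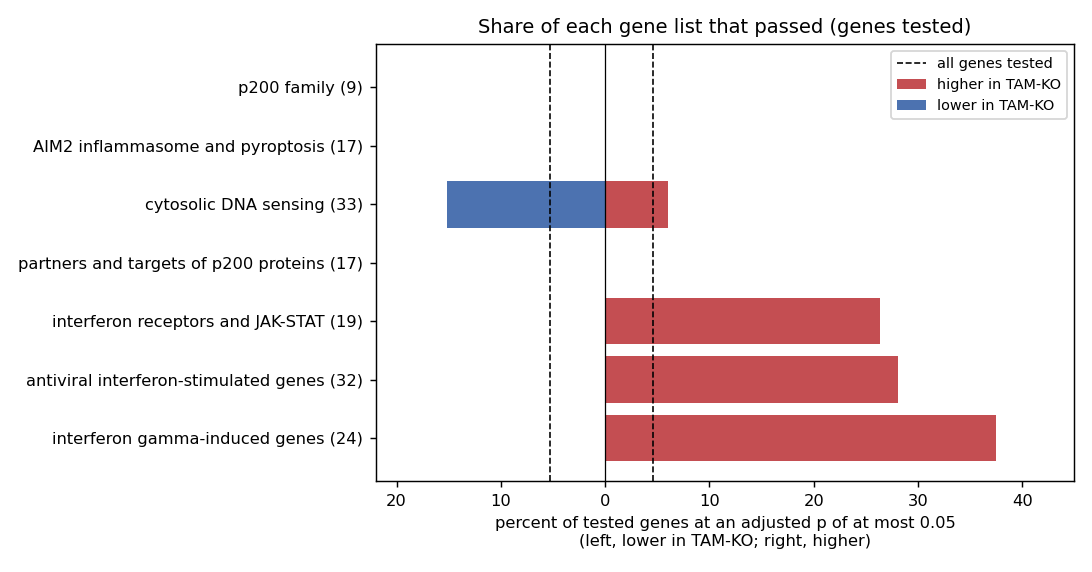
Share of the tested genes of each list (number tested in parentheses) with an adjusted p of at most 0.05 in edgeR, higher in TAM-KO to the right and lower to the left, beside the share of all genes tested (dashed lines at 4.58% and 5.24%). The p200 family, the AIM2 inflammasome list and the list of p200 partners have no bar because none of their genes passed.

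Downstream of AIM2, none of 17 inflammasome and pyroptosis genes passed. At an unadjusted p under 0.05 in edgeR, 2 were higher (14.9% of all genes) and 5 lower (15.7% of all genes). Ninj1, which ruptures the membrane of dying cells, and Il1b, the cytokine that caspase-1 matures, were the most abundant, with log2 fold changes of -0.67 (adjusted p = 0.0707) and -1.08 (adjusted p = 0.0829). Pycard, which encodes ASC, and Casp1, looked up after the values were seen because AIM2 acts through them, had log2 fold changes of 0.09 and 0.12 (adjusted p = 0.458 and 0.540).

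Of 33 genes of cytosolic DNA sensing, 2 rose (6.06%, near the 4.58% of all genes) and 5 fell (15.2%, against 5.24%). The 2 that rose were Sting1, the adaptor through which p204 is thought to signal (log2 fold change 0.64, adjusted p = 0.0302), and Zbp1, a sensor of Z-form nucleic acid (1.42, adjusted p = 0.0353). The 5 that fell were Nlrc3 (-0.85, adjusted p = 0.0139), an inhibitor of STING signaling, Pld3 (-0.80, adjusted p = 0.0269), a nuclease of the endolysosome, Enpp1, which degrades the cyclic dinucleotide that activates STING, Dnase2a, a lysosomal DNase, and Rnaseh2b, a subunit of RNase H2. Sting1, Enpp1, Dnase2a and Rnaseh2b were named after the values were seen, to complete these counts. Unc93b1, the carrier of nucleic acid-sensing Toll-like receptors and among the most abundant of the list, did not pass (0.11).

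None of 17 partners and targets of p200 proteins passed. At an unadjusted p under 0.05 in edgeR, 3 were higher (14.9% of all genes) and 3 lower (15.7% of all genes). Id2, an inhibitor of helix-loop-helix factors to which p204 binds, had a log2 fold change of -0.85 (adjusted p = 0.0565), and Csf1r, the receptor of macrophage colony-stimulating factor, -0.19 (adjusted p = 0.395).

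Genes outside the family with the most similar course were ranked by Pearson's r with the mean standardised log2 CPM (reads scaled by library size) of the 9 members over the 7 complete libraries, given as a description. The 5 highest were Nfkb1, a subunit of NF-kB (r = 0.995), Mmp14, a membrane metalloproteinase (0.986), Slfn5, a Schlafen family member (0.985), Irf9, a factor that acts at interferon-stimulated response elements (0.981), and Crybg1 (0.980). Once the group means were taken away the 5 highest were Adam17 (0.997), Nfkb1 (0.995), Cpd (0.993), Wdr37 (0.990) and Slfn4 (0.990). Nfkb1, which was on both lists, was at 30.48, 23.92, 25.89 and 32.33 FPKM in WT1 to WT4 and at 36.84, 36.49 and 33.6 FPKM in KO2 to KO4. Its range was narrower than that of the p200 genes, although WT2 and WT3 were likewise the lowest.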

How the data were processed

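RNA of sorted TAMs was sequenced on the BGISEQ-500 platform in 4 TAM-WT and 4 TAM-KO libraries, grouped by the genotype in the labels. Per the submitters' notes, HISAT2 2.0.4, Bowtie2 2.2.5 and RSEM 1.2.12 were used with GRCm38.p6. The authors deposited RSEM's expected counts, estimates per gene that can be fractional, with no normalization. FPKM values were deposited by the authors, scaled by transcript length and mapped reads of each library. TPM columns, also deposited by the authors from RSEM, were left aside. The deposited table of the whole series also holds the authors' log2 ratios, p-values and q-values, which were not used. Its values for TAM-KO replicate 1 were used for levels and in an alternative fit, not in the main test. For the other libraries, 27972 expected counts of this table were compared with the sample tables, and all were equal within 0.005. The values of TAM-KO replicate 1 and the FPKM values were not compared. In the table of TAM-KO replicate 1, 5311 genes are not listed and 629 values belong to other genes and were not used.

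After rounding of the expected counts, edgeR 4.0.16 under R 4.3.3 was used (TMM, filterByExpr, glmQLFit, glmQLFTest): 8 libraries for genes with 8 values and 7 for the rest, with Benjamini-Hochberg adjustment over all 12412 genes. SE is the log2 fold change divided by the square root of F. DESeq2 1.42.0 and limma 3.58.1 (pseudocounts of 1 and 0.1 on FPKM) were alternatives. On simulated counts over 12322 genes, 89.7% of 97 genes changed 2-fold and 100% of 98 changed 4-fold were recovered. Recovery for the p200 members themselves, with a coefficient of variation of up to 62.4% in TAM-WT (Ifi205), was not tested. Reads per member and library ran from 112.0 (Ifi205, TAM-WT replicate 2) to 6702 (Ifi207, TAM-WT replicate 4).

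All members are named; of each other list, up to 2 of the most abundant genes and up to 2 with the largest change among those that passed, with any others marked as looked up later. Members and lists were chosen with earlier results of these data known. Promoters are from RefSeq (GRCm38.p6) and transcripts from GENCODE M21; the strand of Ifi207 differs between the deposited tables (plus) and RefSeq (minus), and the latter is printed. How reads were stranded is not given in the sources used here. Results for 2 genes of these lists are not reported here.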

Additional observations from a re-analysis of the deposited data

Results flagged for a closer look

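In 8 of 114 groups of 4 libraries, 1 value stood apart from the other 3 by Dixon's test at 95%; chance gives about 5.7 such groups. None of them was a p200 member. In TAM-WT replicate 1, Ifng was at 2.49 FPKM, Thy1 at 4.67 FPKM, Cd3g at 4.58 FPKM, Nkg7 at 5.82 FPKM and Gzmb at 6.55 FPKM, each above the other 3 TAM-WT libraries. In TAM-KO replicate 1, Oas3 was at 13.11 FPKM, below the other 3 TAM-KO libraries, and S100a8 at 73.46 FPKM, above them. In TAM-WT replicate 3, Fn1 was at 361.29 FPKM, above the other 3.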

How the results depend on the processing

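Signs were kept for all 9 members in 144 member fits, of which 11 newly passed. These include the fits of Ifi203, Ifi204 and Mndal without TAM-KO replicate 1, which repeat the fold changes of the main test. Counts of genes that passed, without 1 library at a time, ran from 0 to 4 for the p200 family, 77 (without TAM-KO replicate 2 or 3) to 2756 (without TAM-WT replicate 2) for all genes, 0 to 1 for the other block genes, 0 to 3 for the AIM2 inflammasome, 0 to 12 for DNA sensing, 0 to 7 for JAK-STAT, 0 to 16 for antiviral genes and 0 to 18 for interferon gamma-induced genes. DESeq2 gave 2 for the p200 family, 2253 for all genes, 2 for the inflammasome, 13 for DNA sensing, 8 for JAK-STAT, 20 for antiviral and 15 for interferon gamma-induced genes. limma on log2(FPKM + 1) gave 2 members, 1 other gene of the block, 11 DNA sensing, 7 JAK-STAT, 18 antiviral and 17 interferon gamma-induced genes. With 0.1 as pseudocount the counts were 2, 1, 11, 7, 17 and 16. With TAM-KO replicate 1 filled from the series table, 1 inflammasome, 7 DNA sensing, 2 JAK-STAT, 5 antiviral and 7 interferon gamma-induced genes passed. At an adjusted p of 0.01, 36 of all genes and 0 of DNA sensing, JAK-STAT, antiviral and interferon gamma-induced genes passed. At 0.05 with a 2-fold change added, 314 of all genes, 1 DNA sensing, 2 JAK-STAT, 3 antiviral and 8 interferon gamma-induced genes passed. The causes were not tested. Same-numbered libraries did not deviate together (r = -0.31, 0.01, -0.23 and 0.26 for numbers 1 to 4). With the replicate block, 1080 of all genes, 0 members, 1 inflammasome, 5 DNA sensing, 3 JAK-STAT, 7 antiviral and 9 interferon gamma-induced genes passed. Among the members, Ifi205, Ifi211, Ifi209, Ifi204 and Mndal had the largest shares of 50-base stretches in common with other genes. Their fold changes may depend on how reads shared with relatives were divided, which was not tested. For Ifi206 no stretches were available, so its sharing is not known.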
